A study of Mus musculus with 6 samples.

Results

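The 34 genes described here encode the proteins with which a cell takes up amino acids, makes polyamines, serine and folate-bound one-carbon units, and moves nitrogen between amino acids and arginine. They were chosen by name, as rows of the count table whose symbol was on a list, and the list was drawn up with values of the same comparison already known. The table held 33 of the 34 among its 16588 genes, and all 33 had enough counts to be tested. Arg2, the mitochondrial arginase, was not analysed here.

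Proliferating lymphocytes import amino acids through solute carriers, several of which are pairs of a heavy and a light chain. Ornithine is decarboxylated to putrescine, which spermidine synthase and spermine synthase extend to the longer polyamines with a carbon-nitrogen unit derived from methionine. Serine gives up a carbon to folate in the cytosol or the mitochondrion, and that carbon goes into purines, thymidylate and methionine. Arginase turns arginine into ornithine and urea, and Arg1 is a known product of group 2 innate lymphoid cells (ILC2s) in the lung.

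RNA was sequenced from lung ILC2s, tissue-resident lymphocytes that answer IL-33 with type 2 cytokines. There were 3 libraries whose genotype label is Cnr2 KO, called KO-labelled libraries here, and 3 wild-type (WT) libraries labelled C57BL/6. Cnr2 encodes the cannabinoid receptor CB2. All mice, of both groups, had been given 0.5 µg of recombinant mouse IL-33 through the nose on each of 3 days. ILC2s were sorted from lungs taken on day 4 and cultured for 18 h, and cDNA was made from 10 pg of RNA. The labels give no age or sex of the mice and no description of the Cnr2 allele, and they do not say whether animals were pooled or whether replicates came from separate animals. The p-values therefore measure only the spread between these libraries, which may be technical. Adipose tissue is named in the series title, but the sample labels all say lung.

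Cnr2 itself went against the labels. It had 147, 139 and 135 counts in KO-labelled libraries, against 76, 503 and 60 counts in WT libraries. Divided by TMM-scaled library totals (CPM, the level used throughout), this was 7.49 ± 0.0627 in KO-labelled libraries and 3.69 ± 0.449 in WT libraries (SD, n = 3 each). The log2 fold change was 1.01 with a standard error (SE) of 0.16 (edgeR adjusted p = 2.11e-05). Whether an exon was deleted cannot be read from a table with 1 value per gene. Each direction given here is therefore that of the KO-labelled libraries relative to WT libraries, and not of a measured loss of Cnr2.

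Total counts ran from 17867541 to 19399819 in KO-labelled libraries and from 19056174 to 129617689 in WT libraries, where replicate 2 held 6.88 times the average total of the other libraries. The ILC2 markers were present in both groups: the 10 listed genes summed to 9695 to 10512 CPM in KO-labelled libraries and to 7559 to 8242 CPM in WT libraries, with 8 called higher and 1 lower. Il5 made up much of these sums, at 4837 to 5722 CPM over all libraries, and was not called. Gata3, called higher, averaged 1073 CPM in KO-labelled libraries and 288 CPM in WT libraries. Areg, the gene called lower, averaged 140 CPM in KO-labelled libraries and 243 CPM in WT libraries. Thy1 was the lowest of the list, averaging 3.69 CPM in KO-labelled libraries and 0.92 CPM in WT libraries. Marker lists of other cells were far lower but were not equal between groups. The summed level of the 3 T cell genes measured of 7 listed was 18.2 to 21.4 CPM in KO-labelled libraries and 5.87 to 6.26 CPM in WT libraries. The 3 epithelial genes measured of 5 listed summed to 45.5 to 51.6 CPM in KO-labelled libraries and to 12.5 to 25.4 CPM in WT libraries. Epcam carried that difference, with 44.5 to 50.01 CPM in KO-labelled libraries and 10.5 to 11.4 CPM in WT libraries. Krt18 was called lower, averaging 1.16 CPM in KO-labelled libraries and 3.43 CPM in WT libraries, and Krt8 was at 0 in all 3 KO-labelled libraries, against 8.61, 1.91 and 0 CPM in WT libraries. The 4 dendritic cell genes measured of 6 listed summed to 20.4 to 25.6 CPM in KO-labelled libraries and to 9.98 to 12.6 CPM in WT libraries. Only Xcr1 carried that difference, averaging 23.3 CPM in KO-labelled libraries and 10.3 CPM in WT libraries. Zbtb46, Flt3 and Itgax were too low to be tested, and each averaged lower in KO-labelled libraries. Zbtb46, for example, averaged 0.246 CPM in KO-labelled libraries and 0.646 CPM in WT libraries. Cd79b, the 1 B cell gene measured of 5 listed, had 25.1 to 26.3 CPM in KO-labelled libraries and 16.1 to 17.2 CPM in WT libraries. The 2 erythroid genes measured of 4 listed summed to 5.13 to 6.27 CPM in KO-labelled libraries and to 0.735 to 1.27 CPM in WT libraries. These sums were thus higher without overlap in KO-labelled libraries, as was that of the macrophage genes given with Arg1. The sums of the NK cell, neutrophil, fibroblast, and eosinophil, basophil and mast cell genes overlapped between groups. The single endothelial gene measured of 4 listed, Pecam1, had 39.3 to 40.3 CPM in KO-labelled libraries and 106 to 114 CPM in WT libraries. The part of these markers in the results below was not tested. In bulk RNA, fewer cells of a type and less RNA per cell cannot be told apart.

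Of the 33 members, 8 were called higher and 18 lower in KO-labelled libraries at an edgeR adjusted p under 0.05, and 7 were not called. Over all 12150 genes tested, 66.3% were called, 33.1% higher and 33.2% lower, so a call by itself was common in this comparison. At a fold change of at least 1.5, 2 members were called higher and 8 lower, against 16.9% of all genes higher and 15.7% lower. The 3 KO-labelled libraries all lay above the 3 WT libraries for 8 members and all lay below them for 20, and the groups were separated in this way for 68.9% of all genes. Since the members were listed with these values known, the counts describe the list and nothing further is read from them. The same holds for the counts by role given below, which stand beside the same shares over all genes. The median log2 fold change of the members was -0.13, within a range of -1.74 to 1.21, and that of all genes was 0.01. The median absolute log2 fold change was 0.29 for the members and 0.40 for all genes.

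The spread of the members was small. Their median coefficient of variation was 3.25% in KO-labelled libraries and 3.67% in WT libraries, and over all genes tested it was 6.89% in KO-labelled libraries and 6.61% in WT libraries. In both groups all 33 members were above the 50th percentile of the tested genes in CPM per kilobase of exon. Their spread was not compared with that of genes at a like level. The fewest counts of any member in any library were 566. Together the 33 genes took 1.17% of all counts in KO-labelled libraries and 1.26% in WT libraries.

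**Figure D1:**
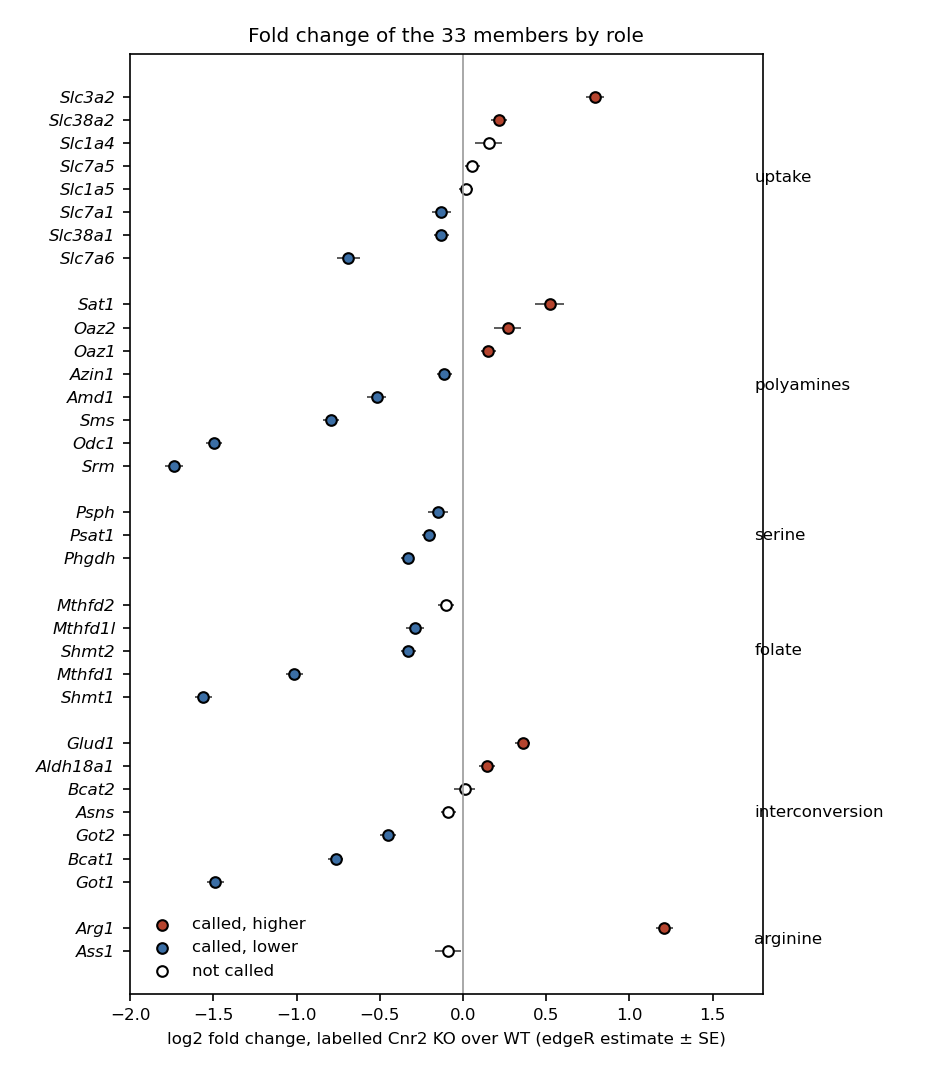
Log2 fold change of each of the 33 members, KO-labelled over WT libraries, with the edgeR standard error as a bar, grouped by role. Filled points are called at an adjusted p under 0.05, red higher and blue lower, and open points are not called. Srm at -1.74 and Arg1 at 1.21 mark the ends, and the serine and folate groups have no member called higher.

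A promoter window, 250 bases before to 50 after the transcription start, was at hand in RefSeq (GRCm38.p6) for 27 of the 34 genes, with 33 windows in all because some genes have several starts. Each was searched on both strands for the amino acid response element TGATGNAA, which ATF4 and C/EBP proteins bind, and for the E-box CACGTG, which MYC and related proteins bind. Neither motif is contained in the other. TGATGNAA was found in 3 of the 33 windows (9.09%) and in 2.27% of 14209 windows of all genes in the table. CACGTG was found in 3 of the 33 windows (9.09%) and in 9.73% of all windows. A match is a description of the letters and not a site at which a factor was measured.

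The windows with TGATGNAA belong to Asns, Got1 and Slc1a4, and they are shown because these 3 genes did not move alike: Got1 was called lower and Asns and Slc1a4 were not called. The stretches are on the minus strand at chr6:7693185-7693272 for Asns, chr19:43524660-43524747 for Got1 and chr11:20332670-20332757 for Slc1a4. They read 5′ to 3′ along the gene, and capitals mark the motif, on the gene's own strand in Asns and as its reverse complement in the others. Relative to the transcription start, the motif begins at position -23 in Asns, -102 in Got1 and -4 in Slc1a4.

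Asns: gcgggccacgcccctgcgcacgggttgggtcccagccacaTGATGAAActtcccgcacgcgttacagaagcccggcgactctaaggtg
Got1: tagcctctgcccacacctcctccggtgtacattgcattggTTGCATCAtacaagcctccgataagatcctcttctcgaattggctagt
Slc1a4: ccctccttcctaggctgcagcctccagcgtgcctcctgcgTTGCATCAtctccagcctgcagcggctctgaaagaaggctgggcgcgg

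Of the windows with an E-box, those of Sms and Aldh18a1 are shown because Sms was called lower and Aldh18a1 higher, and the remaining one belongs to Ass1, which was not called. The stretches are on the minus strand at chrX:157492438-157492523 for Sms and chr19:40588477-40588562 for Aldh18a1, with the E-box in capitals. The E-box begins at position -196 relative to the transcription start in Sms and at -59 in Aldh18a1.

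Sms: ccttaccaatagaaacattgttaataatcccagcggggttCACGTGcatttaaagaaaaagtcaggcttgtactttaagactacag
Aldh18a1: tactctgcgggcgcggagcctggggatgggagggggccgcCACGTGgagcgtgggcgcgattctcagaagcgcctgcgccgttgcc

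Among the members, genes of polyamine synthesis were lower in KO-labelled libraries, and Sat1 and the antizymes, which remove polyamines or restrain their synthesis, were higher. Of the 8 polyamine members, 5 were called lower, namely Srm, Odc1, Sms, Amd1 and Azin1, and 3 higher, namely Sat1, Oaz2 and Oaz1, with a median log2 fold change of -0.32. Their summed level was 1732 ± 30.2 CPM in KO-labelled libraries and 2825 ± 20.8 CPM in WT libraries (SD, n = 3 each).

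Odc1, ornithine decarboxylase and the entry point of the pathway, had 377, 367 and 342 CPM in KO-labelled libraries, against 1029.9, 1045 and 987 CPM in WT libraries. Every KO-labelled library was thus far below every WT library. The level was 2.82-fold lower, as a ratio of mean levels like every fold given here, with a log2 fold change of -1.50 (SE 0.05). Odc1 (ENSMUSG00000011179.8) lies on chromosome 12 from 17544794 to 17551505 in GRCm38, the build of all gene positions given here, from GENCODE release M21.

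Srm, spermidine synthase, had 157, 172 and 167 CPM in KO-labelled libraries, against 538, 521 and 595 CPM in WT libraries. This was the lowest fold change of the 33 members, 3.33-fold lower, with a log2 value of -1.74 (SE 0.06). Srm (ENSMUSG00000006442.10) lies on chromosome 4 from 148591503 to 148594993. Sms, spermine synthase, had 95.7, 94.1 and 93.9 CPM in KO-labelled libraries, against 165, 163 and 164 CPM in WT libraries. The libraries of each group lay within a few CPM of each other, and Sms was 1.74-fold lower, with a log2 value of -0.80 (SE 0.05). Sms (ENSMUSG00000071708.11) lies on chromosome X from 157443855 to 157492287.

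Amd1 makes the decarboxylated S-adenosylmethionine that both synthases use. It had 126, 134 and 116 CPM in KO-labelled libraries, against 188, 177 and 174 CPM in WT libraries, with a log2 fold change of -0.52 (SE 0.06). Amd1 has a near-identical copy, Amd2, and its values are uncertain for that reason. Amd2 averaged 2.18 CPM in KO-labelled libraries and 2.92 CPM in WT libraries and was not called. How reads shared by both genes were assigned is not known.

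Sat1, which acetylates spermidine and spermine for export or breakdown, went the other way. It had 55.9, 69.5 and 69.6 CPM in KO-labelled libraries, against 50.1, 45.6 and 40.1 CPM in WT libraries, a log2 fold change of 0.52 (SE 0.09). The groups did not overlap, although the lowest KO-labelled library and the highest WT library were close. The antizymes, which bind ornithine decarboxylase and send it to the proteasome, differed less. Oaz1 averaged 651 ± 21.5 CPM in KO-labelled libraries and 587 ± 23.8 CPM in WT libraries, and Oaz2 averaged 50.3 ± 0.71 CPM in KO-labelled libraries and 41.3 ± 4.83 CPM in WT libraries (SD, n = 3 each). Their log2 fold changes were 0.15 (SE 0.05) for Oaz1 and 0.27 (SE 0.08) for Oaz2. Azin1, the inhibitor of the antizymes, averaged 218 ± 2.39 CPM in KO-labelled libraries and 236 ± 6.62 CPM in WT libraries, a log2 value of -0.11 (SE 0.05), and its call was lost when any 1 of 5 of the 6 libraries was left out. With an offset for GC content and length, Azin1 was at -0.18.

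**Figure D2:**
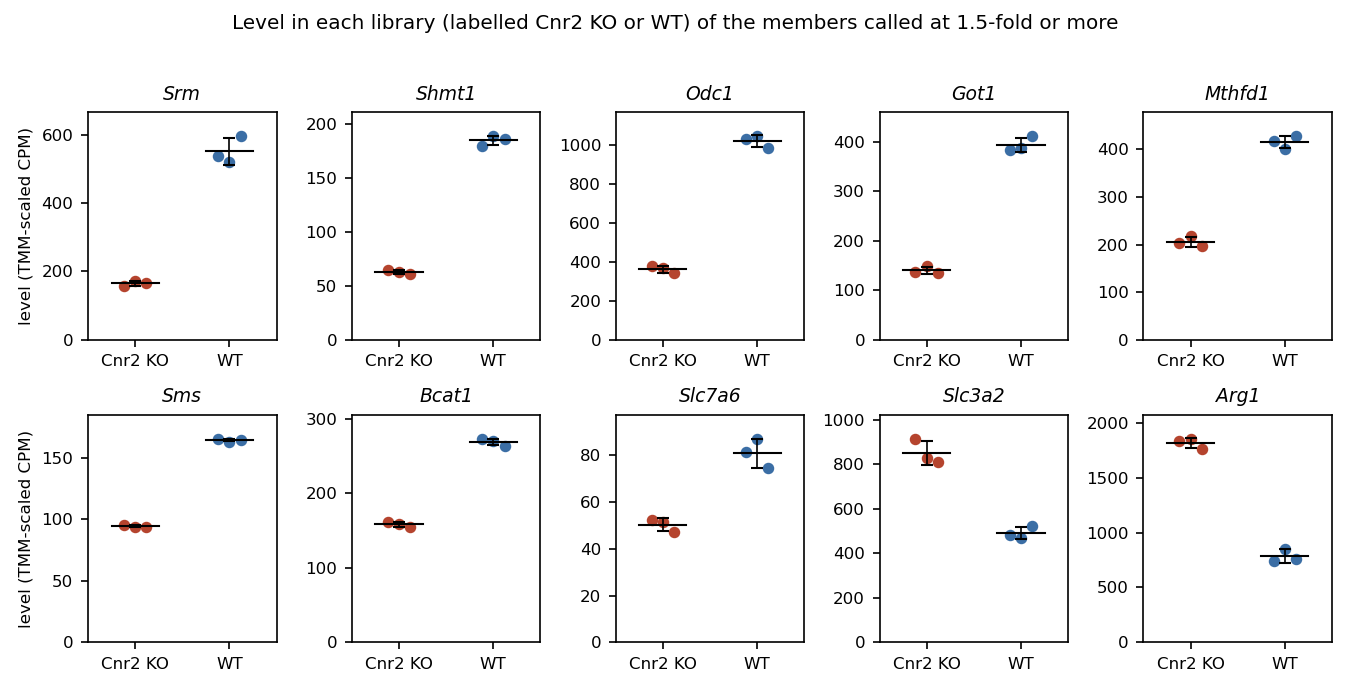
Level in each library, in TMM-scaled CPM, of the 10 members called at a fold change of at least 1.5, with KO-labelled libraries (red) left of WT libraries (blue). Points are libraries and bars are the mean ± SD of 3, and each y axis starts at 0. In all 10 panels the groups are apart, with Slc3a2 and Arg1 higher and the other 8 genes lower in KO-labelled libraries.

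Within folate-dependent one-carbon metabolism, the cytosolic enzymes showed larger differences than their mitochondrial counterparts. Of the 5 members, 4 were called lower in KO-labelled libraries and 1, Mthfd2, was not called, with a median log2 fold change of -0.33. The summed level was 1414 ± 6.26 CPM in KO-labelled libraries and 1979 ± 81.8 CPM in WT libraries (SD, n = 3 each).

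Shmt1, the cytosolic serine hydroxymethyltransferase that moves a carbon from serine to folate, had 64.2, 62.7 and 61.0 CPM in KO-labelled libraries, against 179.6, 188 and 186 CPM in WT libraries. It was 2.95-fold lower, with a log2 value of -1.56 (SE 0.05). Shmt1 (ENSMUSG00000020534.14) lies on chromosome 11 from 60788104 to 60811718, and its exons overlap those of Smcr8 on the other strand. Shmt2, its mitochondrial counterpart, had 700.5, 690.4 and 709.8 CPM in KO-labelled libraries, against 872, 839.9 and 928 CPM in WT libraries. The groups were again apart, but the log2 fold change of Shmt2 was only -0.33 (SE 0.04).

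Mthfd1, which carries 3 successive folate reactions of the cytosol in 1 protein, had 203, 217 and 198 CPM in KO-labelled libraries, against 419, 402 and 427 CPM in WT libraries. It was 2.02-fold lower, with a log2 value of -1.01 (SE 0.05). Mthfd1 (ENSMUSG00000021048.7) lies on chromosome 12 from 76255298 to 76319803. The mitochondrial genes differed less. Mthfd1l, which releases formate, averaged 133 ± 2.91 CPM in KO-labelled libraries and 163 ± 9.67 CPM in WT libraries, a log2 value of -0.29 (SE 0.05). Mthfd2, a mitochondrial dehydrogenase and cyclohydrolase, had 305, 320.1 and 312 CPM in KO-labelled libraries, against 327, 323 and 357 CPM in WT libraries. Its groups did not overlap, yet its log2 value of -0.10 (SE 0.05) was not called. It was called lower in 4 of the 15 alternative fits, and at -0.04 it was smaller with an offset for GC content and length.

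The serine synthesis genes were all lower, by modest amounts. Phgdh, which takes the first step from glycolysis to serine, had 795, 809 and 802 CPM in KO-labelled libraries, against 1023, 994 and 1015 CPM in WT libraries, a log2 value of -0.33 (SE 0.04). Psat1, the transaminase that follows, averaged 697 ± 15.4 CPM in KO-labelled libraries and 804 ± 12.6 CPM in WT libraries, a log2 value of -0.21 (SE 0.04). Psph, the last step, had 82.2, 93.7 and 93.0 CPM in KO-labelled libraries, against 101, 100.4 and 96.6 CPM in WT libraries. The groups of Psph were apart by only a few CPM, and its log2 value of -0.15 (SE 0.06) was -0.09 without replicate 1 of the KO-labelled libraries. Its call was also lost without WT replicate 1, without WT replicate 2 and with an offset for GC content and length. The 3 genes summed to 1589 ± 3.86 CPM in KO-labelled libraries and to 1914 ± 18.1 CPM in WT libraries (SD, n = 3 each).

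Among the 7 genes that interconvert amino acids, 3 were called lower, 2 higher and 2 not at all, and both cytosolic aminotransferases were well below their WT levels. The median log2 fold change of the 7 was -0.09, and 0.0035 with an offset for GC content and length. Got1, the cytosolic aspartate aminotransferase, had 137, 149 and 136 CPM in KO-labelled libraries, against 384, 387 and 410.4 CPM in WT libraries. It was 2.81-fold lower, with a log2 value of -1.49 (SE 0.05). Got1 (ENSMUSG00000025190.13) lies on chromosome 19 from 43499752 to 43524605. Got2, the mitochondrial form, had 314, 298 and 304 CPM in KO-labelled libraries, against 403, 405 and 445 CPM in WT libraries. Got2 was thus also lower, by less, at a log2 value of -0.45 (SE 0.05).

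Bcat1, which transfers the amino group of leucine, isoleucine and valine in the cytosol, had 162, 158 and 155 CPM in KO-labelled libraries, against 273, 270.5 and 264 CPM in WT libraries. It was 1.70-fold lower, with a log2 value of -0.77 (SE 0.05). Bcat1 (ENSMUSG00000030268.17) lies on chromosome 6 from 144993835 to 145076184. The mitochondrial Bcat2 had 89.6, 86.0 and 91.7 CPM in KO-labelled libraries, against 95.2, 81.9 and 89.7 CPM in WT libraries. The groups of Bcat2 overlapped, and its log2 value was 0.01 (SE 0.06).

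Glud1, glutamate dehydrogenase, was higher, with 408, 439 and 442 CPM in KO-labelled libraries, against 339.8, 332 and 333 CPM in WT libraries, a log2 value of 0.36. Aldh18a1, which starts proline synthesis from glutamate, averaged 352 ± 6.3 CPM in KO-labelled libraries and 319 ± 15.7 CPM in WT libraries, a log2 value of 0.15 (SE 0.05). The call of Aldh18a1 was lost without WT replicate 2. Asns, asparagine synthetase, one of the 3 genes with a TGATGNAA match, had 477, 524 and 493 CPM in KO-labelled libraries, against 525, 527 and 538 CPM in WT libraries. Its groups were apart by about 1 CPM at the closest libraries, and its log2 value of -0.09 (SE 0.05) was not called. It was called lower without replicate 2 of the KO-labelled libraries, and its value was 0.0035 with an offset for GC content and length.

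**Figure D3:**
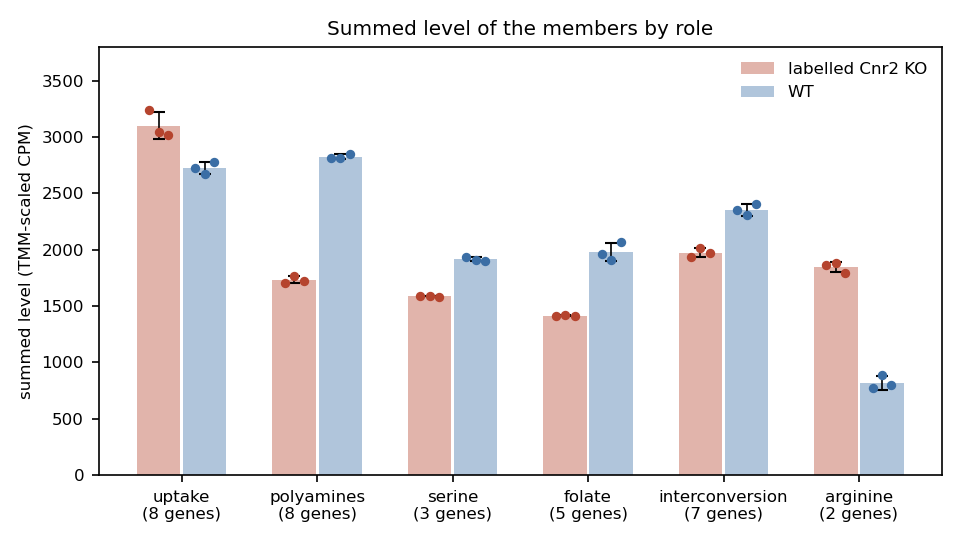
Summed level of the members by role in each library, in TMM-scaled CPM on an axis that starts at 0, with KO-labelled libraries (red) left of WT libraries (blue) and the mean ± SD of 3. Polyamine genes summed to 1732 CPM in KO-labelled libraries against 2825 CPM in WT libraries, and arginine genes to 1847 CPM in KO-labelled libraries against 819 CPM in WT libraries. Of the 2 arginine genes, Arg1 alone averaged 1815 CPM in KO-labelled libraries and 785 CPM in WT libraries.

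The uptake genes did not share a direction. Of 8 carriers, 2 were called higher, 3 lower and 3 not at all, against 33.1% higher and 33.2% lower over all genes tested. The median log2 fold change of the carriers was 0.04. Slc3a2, the heavy chain (CD98) that brings several light chains to the cell surface, had 913, 827 and 812 CPM in KO-labelled libraries, against 484, 467 and 523 CPM in WT libraries. It was 1.73-fold higher, with a log2 value of 0.79 (SE 0.05). Slc3a2 (ENSMUSG00000010095.13) lies on chromosome 19 from 8706882 to 8723369.

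Slc7a5, the light chain that carries large neutral amino acids such as leucine, had 1028, 974 and 953 CPM in KO-labelled libraries, against 958, 930.1 and 955 CPM in WT libraries. The groups of Slc7a5 overlapped, and its log2 value of 0.06 (SE 0.04) was not called. Slc7a6, another light chain of Slc3a2, which exchanges cationic for neutral amino acids, had 52.3, 51.3 and 47.2 CPM in KO-labelled libraries, against 81.3, 86.7 and 74.3 CPM in WT libraries. It was 1.61-fold lower, with a log2 value of -0.69 (SE 0.07), so the heavy chain and its light chains differed in direction and size. Slc7a6 (ENSMUSG00000031904.5) lies on chromosome 8 from 106168857 to 106198706.

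The glutamine and small neutral amino acid carriers were close between groups. Slc1a5 averaged 423 ± 9.77 CPM in KO-labelled libraries and 418 ± 4.34 CPM in WT libraries, and Slc1a4 averaged 38.6 ± 1.81 CPM in KO-labelled libraries and 35.0 ± 3.7 CPM in WT libraries (SD, n = 3 each). Neither was called, with log2 values of 0.02 (SE 0.04) for Slc1a5 and 0.15 (SE 0.08) for Slc1a4, although Slc1a4 was called higher without WT replicate 3 and was at 0.07 without WT replicate 2. Slc38a1 averaged 324 ± 11.2 CPM in KO-labelled libraries and 355 ± 10.1 CPM in WT libraries, and Slc38a2 averaged 308 ± 9.15 CPM in KO-labelled libraries and 265 ± 8.61 CPM in WT libraries (SD, n = 3 each). These 2 paralogs thus had opposite signs, with log2 values of -0.13 (SE 0.05) for Slc38a1 and 0.22 (SE 0.05) for Slc38a2. With an offset for GC content and length, the value of Slc38a1 was -0.32 and that of Slc38a2 was 0.09 and not called, and the call of Slc38a1 was lost without replicate 2 or without replicate 3 of the KO-labelled libraries.

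Slc7a1, the main carrier of arginine and lysine, had 122, 118 and 118 CPM in KO-labelled libraries, against 129.5, 123 and 139.9 CPM in WT libraries. Its log2 value of -0.13 (SE 0.05) was called lower, was -0.28 with an offset for GC content and length, and lost its call in 7 of the 15 alternative fits.

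Arg1, the cytosolic arginase, had 1833, 1850.2 and 1762 CPM in KO-labelled libraries, against 738, 854 and 762 CPM in WT libraries. It was the member with the highest fold change, 2.31-fold higher, with a log2 value of 1.21 (SE 0.05). Arg1 (ENSMUSG00000019987.9) lies on chromosome 10 from 24915221 to 24927484. Arg1 is also made by macrophages, of whose 8 listed markers 3 were measured, with a summed level of 3.44 to 5.66 CPM in KO-labelled libraries and of 1.05 to 1.67 CPM in WT libraries. Of these, Cd68 was called higher, averaging 3.28 CPM in KO-labelled libraries and 1.36 CPM in WT libraries. Adgre1 averaged 0.685 CPM in KO-labelled libraries and was at 0 in all 3 WT libraries. The part of the macrophage markers in the Arg1 value was not tested. Ass1, argininosuccinate synthase, which starts the remaking of arginine from citrulline, had 29.6, 34.3 and 31.4 CPM in KO-labelled libraries, against 34.2, 33.3 and 34.1 CPM in WT libraries. The groups of Ass1 overlapped, and its log2 value of -0.09 (SE 0.08) was not called. Arg1 thus stood high beside lower Odc1, which is 1 of the enzymes that use ornithine, a product of arginase.

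Levels of different genes can be compared per length, here as CPM per kilobase of the union of a gene's exons. On this scale the order of the members differed between groups. Arg1 was first at 815 CPM per kilobase in KO-labelled libraries and second at 352 CPM per kilobase in WT libraries. Phgdh was second at 323 CPM per kilobase in KO-labelled libraries and first at 407 CPM per kilobase in WT libraries. Srm was at rank 10 with 103 CPM per kilobase in KO-labelled libraries and at rank 3 with 345 CPM per kilobase in WT libraries. Odc1 was at rank 9 with 106 CPM per kilobase in KO-labelled libraries and at rank 4 with 299.8 CPM per kilobase in WT libraries, whereas Oaz1 was at rank 4 in KO-labelled libraries and at rank 7 in WT libraries. Slc1a4 was lowest in both groups, at 9.83 CPM per kilobase in KO-labelled libraries and at 8.92 CPM per kilobase in WT libraries. In both groups 14 of the 33 members were above the 95th percentile of the tested genes on this scale.

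The log2 ratio of 2 members within a library does not depend on the scaling between libraries, and neither does the difference of that ratio between groups depend on gene length. The ratio of mitochondrial Shmt2 to cytosolic Shmt1 was 3.77, 3.78 and 3.86 in KO-labelled libraries, against 2.60, 2.48 and 2.64 in WT libraries. In linear terms Shmt2 stood 14.0-fold over Shmt1 in KO-labelled libraries and 5.95-fold over it in WT libraries. Got2 over Got1 was 0.27, 0.08 and 0.24 in KO-labelled libraries, against -0.86, -0.86 and -0.81 in WT libraries. Bcat2 over Bcat1 was 0.40, 0.38 and 0.50 in KO-labelled libraries, against -0.26, -0.47 and -0.30 in WT libraries. In all 3 pairs the mitochondrial form held the larger share in KO-labelled libraries, by a difference of 1.23 for Shmt2 over Shmt1, 1.04 for Got2 over Got1 and 0.77 for Bcat2 over Bcat1. The pairs were chosen with these values known, and no test was made. In these pairs the exons of every gene but Got1 overlap those of a gene on the other strand. The part of such reads in the ratios was not tested.

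Azin1 over Odc1, the inhibitor of antizyme against its protected enzyme, was -1.61 ± 0.06 in KO-labelled libraries and -2.99 ± 0.06 in WT libraries (SD, n = 3 each). The antizymes kept nearly the same proportion, with Oaz2 over Oaz1 at -3.92 in KO-labelled libraries and -4.06 in WT libraries. Among carriers, Slc7a1 over Slc7a6 was -0.09 in KO-labelled libraries and -0.64 in WT libraries, and Slc38a2 over Slc38a1 was 0.89 in KO-labelled libraries and 0.54 in WT libraries. Slc1a5 over Slc1a4 was 3.37 in KO-labelled libraries and 3.49 in WT libraries. Which member of a pair is the higher can depend on the length used, and the sign turned with the length of the longest transcript for Bcat2 over Bcat1 in WT libraries, for Slc7a1 over Slc7a6 in KO-labelled libraries and for Slc38a2 over Slc38a1 in WT libraries.

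**Figure D4:**
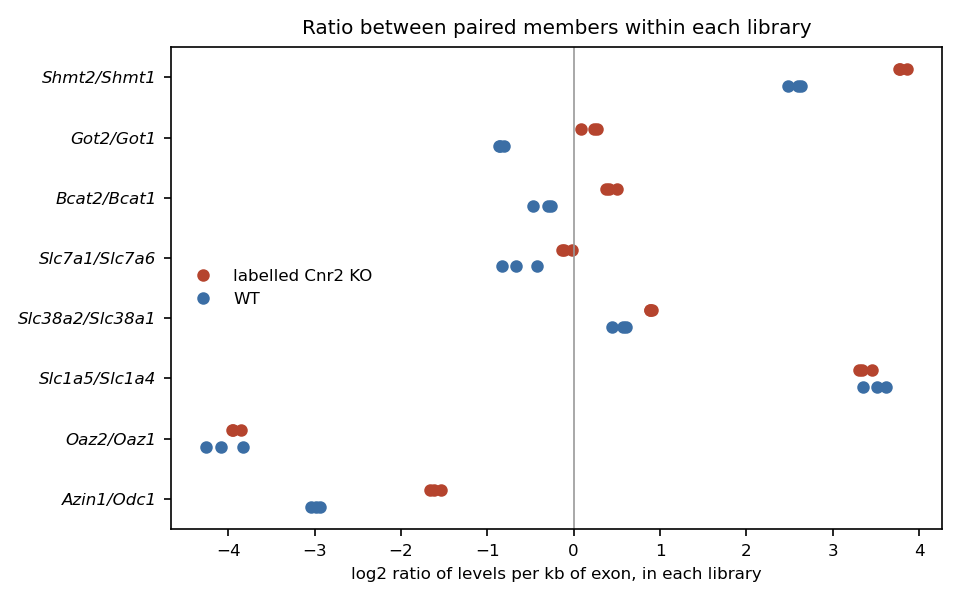
Log2 ratio of the levels per kilobase of exon of paired members in each library, with KO-labelled libraries in red above WT libraries in blue. The ratio of Shmt2 to Shmt1 averages 3.80 in KO-labelled libraries and 2.57 in WT libraries, and that of Azin1 to Odc1 averages -1.61 in KO-labelled libraries and -2.99 in WT libraries.

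Other genes of the same pathways were taken from 6 lists, with 102 of 126 listed genes tested. Of these, 20 were called higher, 57 lower and 25 not at all in KO-labelled libraries, against 33.1% higher and 33.2% lower over all genes tested. Their median log2 fold change was -0.29. The lists were chosen with earlier results of these data known. The counts per list below therefore only describe the lists, and they stand beside the same shares over all genes. Genes of a list are named where they were called, averaged at least 5 CPM and their groups did not overlap, up to 3 per direction by size.

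The other polyamine genes were mostly lower: 11 of 14 tested were called lower, 1 higher and 2 not, with a median log2 fold change of -0.86. Smox, which oxidises spermine back to spermidine, had 68.4, 74.2 and 85.6 CPM in KO-labelled libraries, against 403, 409 and 403 CPM in WT libraries, and was 5.32-fold lower (log2 -2.41, SE 0.06, edgeR adjusted p = 2.70e-16). Mtap, which salvages the methylthioadenosine left by both synthases, was 2.34-fold lower, and Adi1, a later enzyme of that salvage, was 2.25-fold lower. Smox and Sat1, both on the breakdown side, therefore moved in opposite directions. Atp13a2, which exports polyamines from the lysosome, was the 1 gene called higher, with 255, 257 and 231 CPM in KO-labelled libraries, against 89.4, 88.8 and 92.3 CPM in WT libraries (log2 1.46, SE 0.05, edgeR adjusted p = 1.63e-14).

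Spermidine is also the donor for hypusine, a modified residue of the translation factor eIF5A. The list held 3 genes of this modification, named here after their values were seen, and their transcript levels do not measure the modification. Eif5a had 1131, 1176 and 1130.0 CPM in KO-labelled libraries, against 2346, 2387 and 2429.8 CPM in WT libraries, and was 2.08-fold lower (log2 -1.06, SE 0.04, edgeR adjusted p = 3.60e-14). Dhps, which starts the modification with spermidine, averaged 42.4 ± 0.937 CPM in KO-labelled libraries and 73.9 ± 2.96 CPM in WT libraries (SD, n = 3 each). Dohh, which completes it, averaged 59.8 ± 1.88 CPM in KO-labelled libraries and 129 ± 8.28 CPM in WT libraries (SD, n = 3 each). All 3 were called lower.

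Of 22 other one-carbon genes tested, 13 were called lower, 6 higher and 3 not, with a median log2 fold change of -0.31. Slc19a1, the reduced folate carrier, had 64.8, 66.7 and 59.7 CPM in KO-labelled libraries, against 231, 213 and 224 CPM in WT libraries, and was 3.49-fold lower (log2 -1.80, SE 0.06, edgeR adjusted p = 2.44e-15). Cth, which makes cysteine from cystathionine, was 3.80-fold lower, and Gcsh, the carrier protein of the glycine cleavage system, was 2.22-fold lower. Gldc, the decarboxylase of that same system, was higher, with 16.2, 12.9 and 19.8 CPM in KO-labelled libraries, against 2.68, 3.02 and 3.43 CPM in WT libraries (log2 2.42, SE 0.16, edgeR adjusted p = 1.88e-10). Members of 1 enzyme system thus differed in direction. Mthfs, which returns 5-formyl folate to the pool, was 1.74-fold higher, and Ggh, which trims folate polyglutamates, was 1.56-fold higher.

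Among 18 other amino acid carriers tested, 6 were called higher, 7 lower and 5 not, with a median log2 fold change of -0.05. Slc7a8, a light chain of Slc3a2 for neutral amino acids, had 1285, 1152 and 1159 CPM in KO-labelled libraries, against 223, 215 and 206 CPM in WT libraries. It was 5.58-fold higher (log2 2.48, SE 0.05, edgeR adjusted p = 1.30e-17), and so was higher together with its heavy chain while Slc7a6 was lower. Slc43a2, a leucine and phenylalanine carrier, had a log2 value of 0.71, and Slc16a10, an aromatic amino acid carrier, of 0.63. Slc7a11, the cystine-glutamate exchanger, was lower at -0.74, as were the taurine carrier Slc6a6 at -0.55 and the cationic amino acid carrier Slc7a3 at -0.45.

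Of 14 other glutamine, aspartate, proline and arginine genes tested, 8 were called lower, 2 higher and 4 not, with a median log2 fold change of -0.28. Glul, glutamine synthetase, averaged 63.8 ± 3.45 CPM in KO-labelled libraries and 34.2 ± 0.94 CPM in WT libraries (SD, n = 3 each), 1.87-fold higher (edgeR adjusted p = 7.33e-10). Pycrl, a reductase of the last step to proline, was 2.00-fold lower, in contrast to the higher Aldh18a1 before it in the pathway. Gpt, alanine aminotransferase, averaged 4.15 ± 0.902 CPM in KO-labelled libraries and 6.11 ± 1.08 CPM in WT libraries (SD, n = 3 each) and was called lower, but its call was lost without replicate 3 of the KO-labelled libraries and without WT replicate 1.

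Branched-chain breakdown, the path that follows Bcat1 and Bcat2, had 9 of 17 tested genes called lower, 1 higher and 7 not, with a median log2 fold change of -0.17. Hibadh of valine breakdown was lower at a log2 value of -0.66, Bckdhb of the branched-chain keto acid dehydrogenase at -0.64, and Mccc2 of leucine breakdown at -0.54. Aldh6a1, a later step of valine breakdown, was the 1 gene called higher, at 0.55.

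The amino acid stress response list, made of ATF4, the genes around it and its known targets, had 9 of 17 tested genes called lower, 4 higher and 4 not, with a median log2 fold change of -0.17. Atf4, the transcription factor itself, had 322, 316 and 324 CPM in KO-labelled libraries, against 327, 328 and 339 CPM in WT libraries, a log2 value of -0.05 (SE 0.04, edgeR adjusted p = 0.350), and so was not called although its groups did not overlap. With an offset for GC content and length its value was 0.02. Its targets did not share a direction. Ddit3 was 1.86-fold higher, Chac1 was 1.53-fold higher and Trib3 had a log2 value of 0.56. Atf3 was 7.02-fold lower, at low levels that averaged 1.55 CPM in KO-labelled libraries and 10.9 CPM in WT libraries. Nupr1 was 4.32-fold lower and Cebpb was 2.06-fold lower. The log2 value of Cebpb was -1.05, and -0.60 with an offset for GC content and length. Since Atf4 is regulated mainly through translation, its transcript level does not measure its activity.

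**Figure D5:**
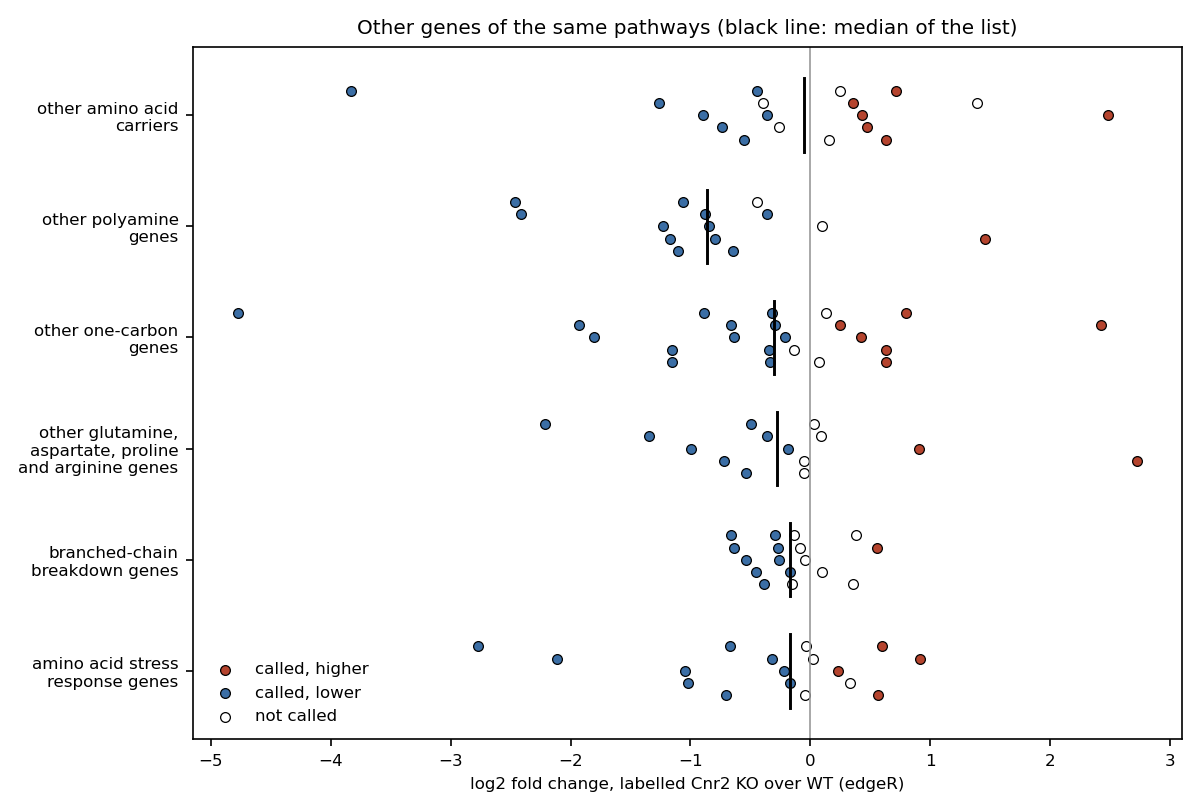
Log2 fold change, KO-labelled over WT libraries, of the 102 tested genes of 6 lists of related pathway genes. Each point is a gene, red called higher, blue called lower and open not called, and the black line is the median of the list. The other polyamine genes have their median at -0.86, and the other carriers at -0.05.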

How the data were processed

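Per the labels, RNA of sorted and cultured lung ILC2s was made into cDNA with a low-input kit. The submitters' processing notes name Partek 10.0, STAR 2.7.8, DESeq2 and the build mm10, with no role or order. How reads were counted, and on which strand, is not given in the sources used here. As deposited by the authors, the table holds expected counts, estimated per gene and library with those tools; 59.1 to 81.2% lay within 0.02 of a whole number, and all were rounded. Exons of 8 members overlap a gene on the other strand, whose reads cannot then be told apart.

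Groups were compared by edgeR 4.0.16 in R 4.3.3 (quasi-likelihood, TMM, no covariate) over the 12150 genes that filterByExpr kept (minimum count 10, minimum total 15), with Benjamini-Hochberg adjustment and a threshold of 0.05. It was tested on simulated data. An SE is the absolute log2 fold change divided by the square root of F. Replicates of a group differed beyond sampling noise (chi-square per gene 4.15 to 8.07). Members, lists and pairs were chosen with earlier results of these data known. Positions came from GENCODE M21. Alternatives were other scalings and filters, DESeq2 1.42.0, limma-voom (limma 3.58.1), a replicate block, thinning of the deepest library, a GC and length offset, other thresholds, another gene length and leaving out each library. Named genes were the members, Cnr2, Atf4 and, from each list, called genes of at least 5 CPM without overlap, up to 3 per direction by size. Eif5a, Dhps and Dohh lie outside this rule and were chosen after their values were seen. The values of 1 gene that the rule names are not reported here.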

Additional observations from a re-analysis of the deposited data

How the results depend on the processing

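Over 15 alternative fits, 24 of the 33 members kept the same call in every fit, and 0 members called in the main comparison reversed. The 9 members with a changed call in some fit were Slc7a1, Azin1, Psph, Slc38a1, Slc38a2, Aldh18a1, Mthfd2, Asns and Slc1a4, and the 10 members called at 1.5-fold kept their calls in all 15. Leaving out each library in turn gave 7 to 9 members called higher and 15 to 17 lower, with a median log2 fold change of -0.14 to -0.11, and 19 to 22 of the related genes higher and 52 to 55 lower. Deviations of same-numbered libraries correlated at 0.01 to 0.07, and those of differently numbered libraries at -0.07 to 0.03. With 3 libraries per group, such values cannot tell whether replicate numbers pair the libraries. The fit with a replicate block called 8 members higher and 19 lower. With an offset for GC content and length, the median log2 fold change of the members was -0.18, against -0.13. With a fold change of at least 1.5 also required, 2 members were called higher and 8 lower.

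Ratios per length could move with the length of the longest transcript in place of the exon union, by construction by the same amount in both groups. Shmt2 over Shmt1 was nearly unchanged, at 3.80 in KO-labelled libraries and 2.57 in WT libraries with the longest transcript. Got2 over Got1 was then 0.83 in KO-labelled libraries and -0.21 in WT libraries. Bcat2 over Bcat1 was 1.08 in KO-labelled libraries and 0.31 in WT libraries. Slc7a1 over Slc7a6 was 0.31 in KO-labelled libraries and -0.24 in WT libraries. Slc38a2 over Slc38a1 was 0.18 in KO-labelled libraries and -0.17 in WT libraries. Slc1a5 over Slc1a4 was 3.94 in KO-labelled libraries and 4.07 in WT libraries, Oaz2 over Oaz1 was -3.24 in KO-labelled libraries and -3.38 in WT libraries, and Azin1 over Odc1 was -1.87 in KO-labelled libraries and -3.25 in WT libraries. Depth did not limit the members, whose lowest count in a library was 566.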
